A study of Homo sapiens with 36 samples.

Results

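The interferon-stimulated genes described here are 44 listed genes, matched by symbol among the 57500 gene identifiers of the deposited count table. All 44 had a matching identifier. Polyadenylated mRNA was sequenced in FLO1 and OE33, 2 established lines of human esophageal adenocarcinoma. Each line was stably transduced with a non-targeting shRNA (shControl) or with shAPE1#1 or shAPE1#3, which target the mRNA of APE1, the product of APEX1. Cells were left unexposed or were exposed to acidic bile salts (ABS), a cocktail at 200 µM and pH 4 that models reflux, for 20 min and then kept for 6 h in complete medium. The 12 groups hold 3 libraries each, 36 in all, which the series describes as independent biological replicates; separate transductions are not described, so p-values measure only the spread between these libraries. The medium was DMEM for FLO1 and RPMI1640 for OE33, and line and medium cannot be told apart. No group received acid without bile salts, so the contributions of acid and bile salts cannot be told apart either.

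Interferons are secreted proteins that bind receptors on the cell surface and activate kinases of the JAK family. For type I and type III interferons these are JAK1 and TYK2. Type I and type III interferons act mainly through ISGF3, a complex that contains STAT2 and IRF9 and binds a DNA element called the interferon-stimulated response element (ISRE), where it raises the transcription of interferon-stimulated genes. These genes encode antiviral effectors, sensors of foreign RNA, enzymes that attach or remove the ubiquitin-like protein ISG15, and some of the transcription factors of the pathway itself. Many are also transcribed at a low level without added interferon, and the level differs between tumor cell lines.

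Promoter stretches of 6 members on which the results turn are printed first, to show how the ISRE core lies before their start sites. The ISRE core was searched as TTTCNNTTTC on both strands in windows from 250 bases before to 50 bases after each start in the RefSeq promoter table for GRCh38.p14, where 36 of the 44 members were found. It was present in 26 of these 36 members (72.2%), against 4.38% of 27305 gene symbols and 3.57% of 35116 promoters. The gamma-activated site, searched as TTCNNNGAA, was present in 11 of the 36 (30.6%), against 9.38% of all symbols. A match is a description of letters, and binding was not measured. Each sequence below is the 200 bases before the start, 5′ to 3′ on the strand of the gene, with ISRE cores in capitals. IFI27 (chr14:94110536-94110735, plus strand), IFI6 (chr1:27672193-27672392, minus strand) and IFITM1 (chr11:313840-314039, plus strand) are shown because they had some of the largest falls with knockdown in OE33 among members above 1 CPM; the second match of IFITM1 runs past the start and is printed in part. OAS1 (chr12:112906762-112906961, plus strand) had the largest called response to ABS, SAMD9 (chr7:93117980-93118179, minus strand) the largest difference between the lines among members with more than 3 counts in each, and IFIT3 (chr10:89332329-89332528, plus strand) was lower with shAPE1#3 in FLO1; its second listed start is shown.
IFI27: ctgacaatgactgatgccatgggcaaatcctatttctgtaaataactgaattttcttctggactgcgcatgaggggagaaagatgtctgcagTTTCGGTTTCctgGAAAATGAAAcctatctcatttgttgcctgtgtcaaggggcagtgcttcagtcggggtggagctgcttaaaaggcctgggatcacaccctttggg
IFI6: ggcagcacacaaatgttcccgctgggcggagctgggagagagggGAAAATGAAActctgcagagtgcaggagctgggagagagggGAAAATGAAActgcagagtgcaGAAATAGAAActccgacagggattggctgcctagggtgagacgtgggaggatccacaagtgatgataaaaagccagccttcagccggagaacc
IFITM1: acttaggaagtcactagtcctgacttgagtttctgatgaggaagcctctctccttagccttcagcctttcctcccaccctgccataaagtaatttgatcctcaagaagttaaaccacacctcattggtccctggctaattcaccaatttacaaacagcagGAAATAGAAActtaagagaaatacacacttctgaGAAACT
OAS1: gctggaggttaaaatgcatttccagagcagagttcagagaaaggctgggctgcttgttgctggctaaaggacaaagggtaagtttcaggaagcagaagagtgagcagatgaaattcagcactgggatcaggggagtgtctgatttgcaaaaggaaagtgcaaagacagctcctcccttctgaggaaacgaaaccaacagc
SAMD9: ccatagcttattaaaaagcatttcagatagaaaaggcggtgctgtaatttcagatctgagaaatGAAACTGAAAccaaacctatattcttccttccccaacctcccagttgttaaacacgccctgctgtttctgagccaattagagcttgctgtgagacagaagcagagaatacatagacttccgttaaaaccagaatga
IFIT3: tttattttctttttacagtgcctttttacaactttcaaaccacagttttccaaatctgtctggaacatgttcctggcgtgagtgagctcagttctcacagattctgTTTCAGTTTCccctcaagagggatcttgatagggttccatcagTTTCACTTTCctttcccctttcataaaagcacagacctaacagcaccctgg
The windows of IFI27, IFITM1 and IFIT3 held 2 matches each, that of IFI6 held 3 and that of SAMD9 held 1. The OAS1 window held 0, which says only that these letters are not in it. Near its end the printed OAS1 stretch holds gaaacgaaa, with 1 base between the GAAA repeats where the search requires 2.

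Libraries held 20.65 M to 40.65 M counts each (M, 1e6). Levels are given in CPM, counts per 1e6 counts after TMM scaling, for each of the 3 libraries of a group; effects are log2 fold changes ± SE, and a gene was called at a Benjamini-Hochberg adjusted p under 0.05 in edgeR's quasi-likelihood test over all genes of a line. The targeted gene APEX1 averaged 188 ± 3.96 CPM (SD, n = 3) in the unexposed controls of FLO1, against 24.3 ± 0.0777 under shAPE1#1 and 35.6 ± 1.39 under shAPE1#3; the averages of OE33 were 205 ± 5.47, 25.1 ± 2.26 and 23.2 ± 0.608 CPM. All 4 differences from shControl were called. The 8 epithelial markers checked against the labelled cell type summed to 2235 to 4529 CPM per library in FLO1, where CLDN7 was below 1 CPM, and to 19180 to 26090 CPM in OE33. The 10 immune markers summed to 6.13 to 11.1 CPM in FLO1 and 7.0 to 10.4 CPM in OE33; PTPRC, CD3E, CD3D and MS4A1 were below 1 CPM in every library of both lines, while CD68, ITGAM and LYZ, and in OE33 also CD14, were not. After ABS, ITGAM was called higher in shControl cells of both lines, in FLO1 shAPE1#3 and in OE33 shAPE1#1 cells. In OE33, CD14 was called lower with both shRNAs and ITGAM higher with shAPE1#3, unexposed and after ABS, and LYZ higher with shAPE1#3 after ABS. In FLO1 after ABS, LYZ was called higher with both shRNAs and ITGAM lower with shAPE1#1. Their part in the results below was not tested. The 5 endothelial markers were below 1 CPM in every library. VIM, at 2936 ± 191 CPM in FLO1 shControl, lay between 0.317 and 7.5 CPM in OE33.

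In unexposed control cells the lines differed in most members, and in both directions. Of the 44 members tested, 28 were higher and 9 lower in OE33, while 77.6% of all 18199 genes were called in that comparison (37.6% higher and 39.9% lower), so the total is near the background. The median difference of the members was 0.88 on the log2 scale, against -0.06 over all genes tested. SAMD9, whose product restrains translation and growth, read 0.180, 0.119 and 0.185 CPM in the FLO1 libraries and 80.3, 79.3 and 95.6 CPM in OE33. SAMD9L, its neighbor and paralog, read 0.108, 0.149 and 0.0738 CPM in FLO1 and 14.1, 15.6 and 15.9 CPM in OE33. OAS1, a synthetase of the 2′-5′ oligoadenylates that activate RNase L, read 1.15, 0.567 and 0.295 CPM in FLO1 and 56.5, 50.2 and 45.8 CPM in OE33. The libraries of the lines did not overlap for any of these, and the fitted differences were 9.03 ± 0.24 (adjusted p = 1.33e-28), 7.02 ± 0.29 (adjusted p = 2.07e-22) and 6.24 ± 0.20 (adjusted p = 6.27e-26, edgeR). IFI44 (6.19), IFI27 (5.89), LGALS3BP (4.68), CMPK2 (4.18) and IFITM1 (3.77) were also called higher in OE33. EPSTI1 and IFI44L had 1 count each over the FLO1 shControl libraries, so no fold is given for them.

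The largest difference in the other direction was in IFITM2, a membrane protein that blocks the entry of enveloped viruses. It read 31.3, 23.3 and 29.6 CPM in FLO1 and 0.198, 0.298 and 0.106 CPM in OE33, a difference of -7.11 ± 0.29 (adjusted p = 1.18e-22, edgeR). Its relative IFITM3 read 822, 656 and 805 CPM in FLO1 and 122, 104 and 93.3 CPM in OE33, without overlap (-2.84). The sequences of IFITM1, IFITM2 and IFITM3 are close to each other and the annotated spans of IFITM1 and IFITM2 overlap on the same strand, so how reads were divided among them is uncertain. HERC5, the ligase that attaches ISG15 (-2.53), USP18, the protease that removes it (-2.27), and the exonuclease gene ISG20 (-2.09) were likewise lower in OE33. ISG15 itself was not called: it read 79.4, 71.3 and 69.3 CPM in FLO1 and 70, 66.6 and 59.6 CPM in OE33. Per kilobase of exon, the most abundant members of FLO1 shControl were IFITM3 (564 CPM per kb), ISG15 (78.0) and USP18 (26.2), and those of OE33 shControl were LGALS3BP (89.6), IFITM3 (79.0) and ISG15 (69.5). Over all 6 groups of a line, 10 members of FLO1 and 4 of OE33 stayed below 1 CPM on average.

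**Figure D1:**
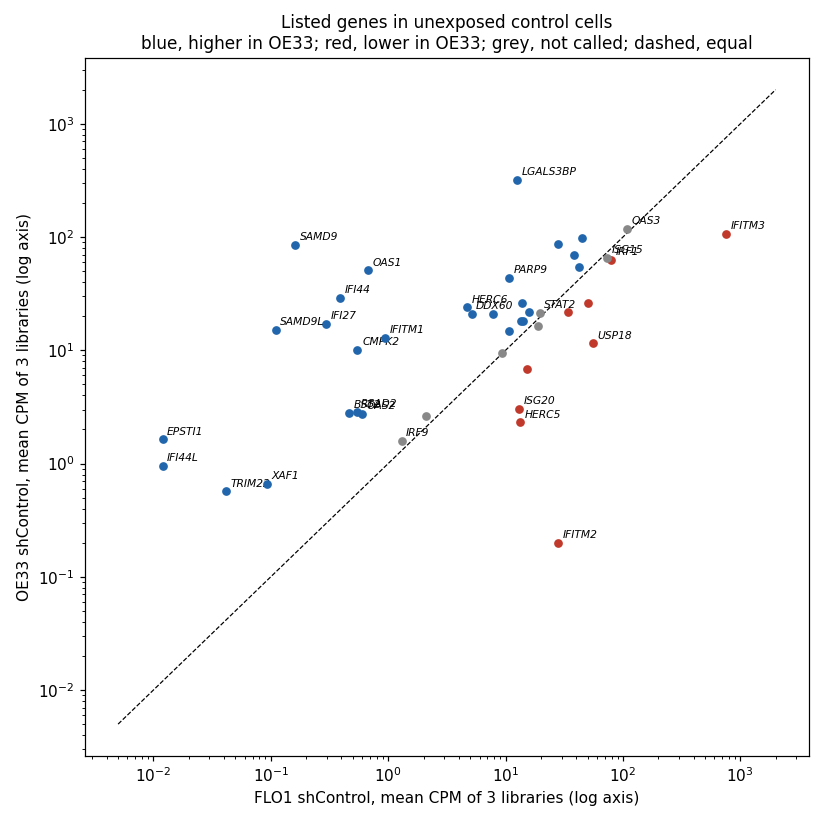
Mean CPM of each of the 44 genes in unexposed shControl cells of FLO1 (horizontal, log axis) and OE33 (vertical, log axis), 3 libraries each, with no error bars. Blue points (28) were called higher in OE33, red points (9) lower and grey points (7) neither; SAMD9, OAS1, IFI44 and SAMD9L lie far above the dashed line of equality and IFITM2 far below it.

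With either shRNA against APE1, 20 or more of the 43 members tested in OE33 were called lower, unexposed or after ABS. In these comparisons 15.8% to 21.7% of all genes were called, 8.13% to 10.5% lower. In FLO1 with shAPE1#1, 6 members in unexposed cells and 13 after ABS were called, all higher. Of all genes, 6.74% and 16.6% were called there (4.52% and 8.26% higher). With shAPE1#3 in FLO1, 3 members were lower and IFI27 higher in unexposed cells, and 1 was lower after ABS. For that shRNA 0.788% and 0.783% of all genes were called. The map of log2 fold changes shows these calls over all members and comparisons. The filter on low counts kept 43 members in OE33 (IFITM2 was left out) and 39 in FLO1, where EPSTI1, IFI44L, SAMD9, TRIM22 and XAF1 were left out for low counts. Members that passed the filter are a subset chosen by level, and medians below refer to them only. In bulk RNA, fewer cells of a type and less RNA per cell cannot be told apart.

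**Figure D2:**
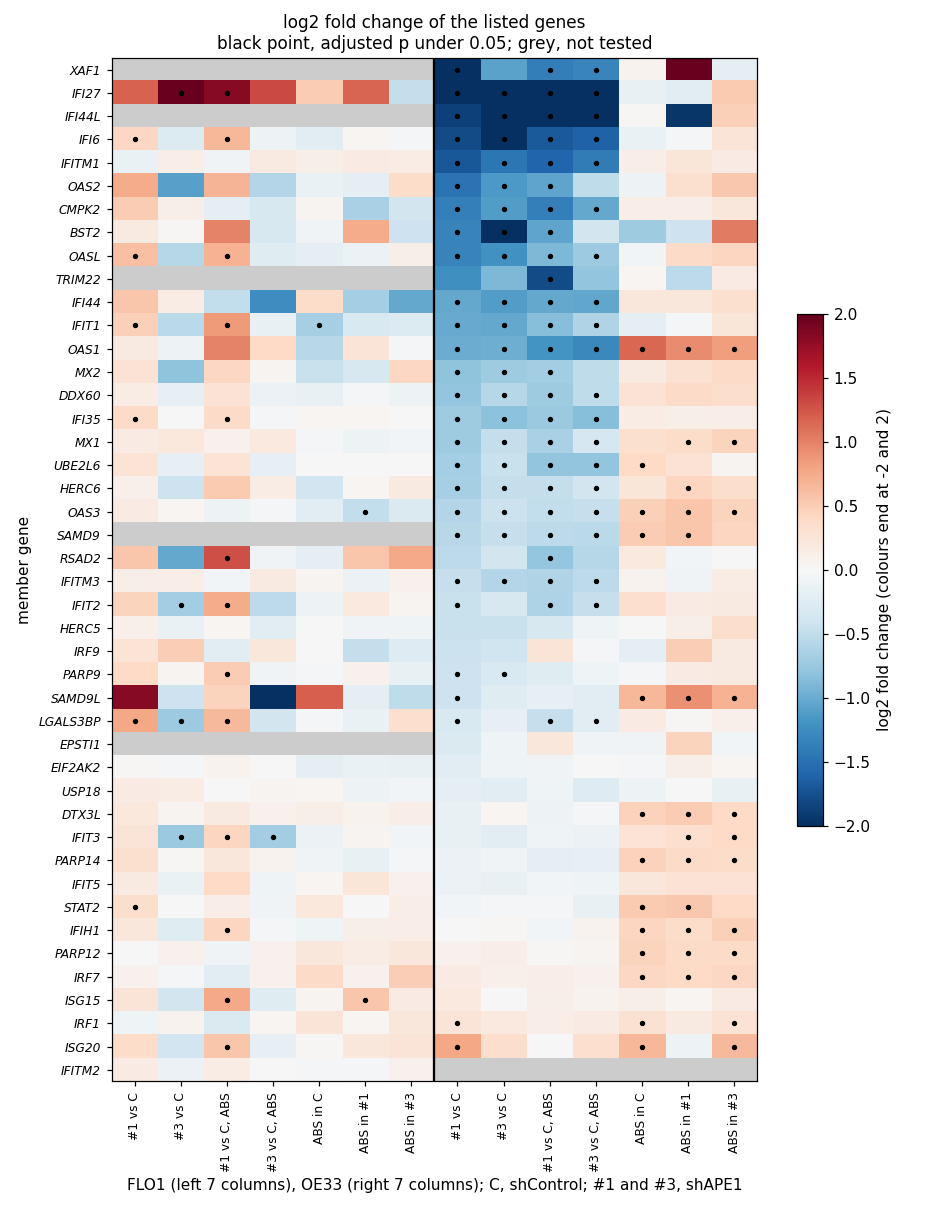
Log2 fold change of each listed gene (rows, ordered by the shAPE1#1 effect in OE33) in 7 comparisons per line (columns), from the fits per line; colors end at -2 and 2, black points mark an adjusted p under 0.05 and grey cells were not tested. The upper part of the OE33 knockdown columns is blue with points, OAS1 and the lower part of the OE33 ABS columns are red with points, and most points of FLO1 stand in the 2 shAPE1#1 knockdown columns.

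In unexposed OE33 cells shAPE1#1 lowered 25 of the 43 tested members and raised 2, with 16.4% of all 15540 genes called (8.13% lower and 8.24% higher). The median change of the members was -0.52, against 0.01 over all genes. With shAPE1#3, 21 of 43 members fell and 0 rose, with 21.7% of all genes called (10.5% lower and 11.2% higher); the members' median was -0.44 and that of all genes was -0.00. At an unadjusted p under 0.05 the numbers were 29 and 26 members in either direction, beside 4387 and 5149 of all 15540 genes. DESeq2 called 27 and 21 members. Both shRNAs are compared with the same shControl libraries, so their values stand side by side and their likeness is not a separate result.

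The members with the largest falls at a level of at least 1 CPM included small membrane proteins. IFI27, a protein of mitochondrial and nuclear membranes, read 21.3, 16.3 and 13.8 CPM in shControl, 3.02, 2.3 and 2.13 with shAPE1#1 and 1.49, 1.86 and 3.42 with shAPE1#3. All 6 knockdown libraries lay far below all 3 control libraries, and the changes were -2.78 ± 0.19 (adjusted p = 7.68e-11) and -2.90 ± 0.20 (adjusted p = 9.28e-11, edgeR). IFI6, a mitochondrial protein that inhibits apoptosis, read 21.4, 14.2 and 14 CPM in shControl, 4.2, 4.6 and 5.52 with shAPE1#1 and 3.18, 4.28 and 4.67 with shAPE1#3. No knockdown library reached a control library, and the falls were 3.45-fold (adjusted p = 1.04e-08) and 4.04-fold (adjusted p = 2.79e-09, edgeR). IFITM1, which acts at the plasma membrane against viral entry, read 15, 12.6 and 10.9 CPM in shControl, 4.02, 4.43 and 3.43 with shAPE1#1 and 4.77, 4.76 and 4.62 with shAPE1#3. Its libraries did not overlap either (-1.70 and -1.44, adjusted p = 1.89e-09 and 3.4e-08). IFITM3 changed less, by -0.46 and -0.59. BST2, the tether that holds budding virus at the cell surface, was called with both shRNAs from a lower level of 3.56, 2.5 and 2.36 CPM in shControl, 0.818, 1.48 and 1.05 with shAPE1#1 and 0.873, 0.619 and 0.444 with shAPE1#3.

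The 2′-5′ oligoadenylate synthetase family fell as a group: OAS1, OAS2, OAS3 and OASL were called lower with both shRNAs. OAS1 read 56.5, 50.2 and 45.8 CPM in shControl, 23.6, 27.2 and 25.5 with shAPE1#1 and 24.7, 28.1 and 24.7 with shAPE1#3. Its knockdown libraries all lay under its control libraries, and the changes were -1.0 ± 0.09 (adjusted p = 3.57e-09) and -0.97 ± 0.09 (adjusted p = 6.9e-09, edgeR). OASL, the family member without synthetase activity, read 16.2, 15.4 and 12.8 CPM in shControl, 6.9, 5.99 and 4.7 with shAPE1#1 and 6.06, 6.71 and 6.35 with shAPE1#3, with no overlap (-1.33 and -1.21). OAS3, the most abundant of the family, changed by -0.58 ± 0.08 and -0.43 ± 0.08. OAS2 changed by -1.48 and -1.15 at a level near or under 3 CPM.

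Other antiviral effectors fell alongside. CMPK2, a mitochondrial nucleotide kinase, read 9.97, 10.9 and 9.41 CPM in shControl, 3.7, 3.25 and 4.7 with shAPE1#1 and 4.93, 5.09 and 4.0 with shAPE1#3, which did not overlap the controls (-1.37 and -1.11). Its annotated span overlaps that of RSAD2 on the opposite strand. IFI44 read 30.4, 28.9 and 28 CPM in shControl, 13.6, 13 and 16.2 with shAPE1#1 and 13, 14.1 and 12.8 with shAPE1#3, also without overlap (-1.03 and -1.13). It encodes a GTP-binding protein that restricts several viruses. Its paralog IFI44L, at 1.27, 0.708 and 0.881 CPM in shControl, was called with both shRNAs, and XAF1, at 0.396, 0.820 and 0.776 CPM, with shAPE1#1. The dynamin-like GTPases MX1 (-0.71 and -0.47) and MX2 (-0.81 and -0.72) were lower with both shRNAs, though the MX2 call was lost without shControl replicate 1 or 3 in either comparison, without shAPE1#1 replicate 3, and without shAPE1#3 replicate 1 or 3 (adjusted p up to 0.104 and 0.224). Of the IFIT family, whose proteins bind viral RNA ends, IFIT1 was lower with both (-1.0 and -1.03) and IFIT2 was called with shAPE1#1 (-0.45, with overlapping libraries and lost without any of 4 libraries) and missed the threshold with shAPE1#3 (-0.32), while IFIT3 (-0.14 and -0.23) and IFIT5 (-0.12 and -0.15) did not pass with either. IFIT1, IFIT2 and IFIT3 lie inside the annotated span of LIPA on the opposite strand, which averaged 70.6 CPM, and the strand setting of the counting is not given in the sources used here, so part of their counts could belong to it.

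**Figure D3:**
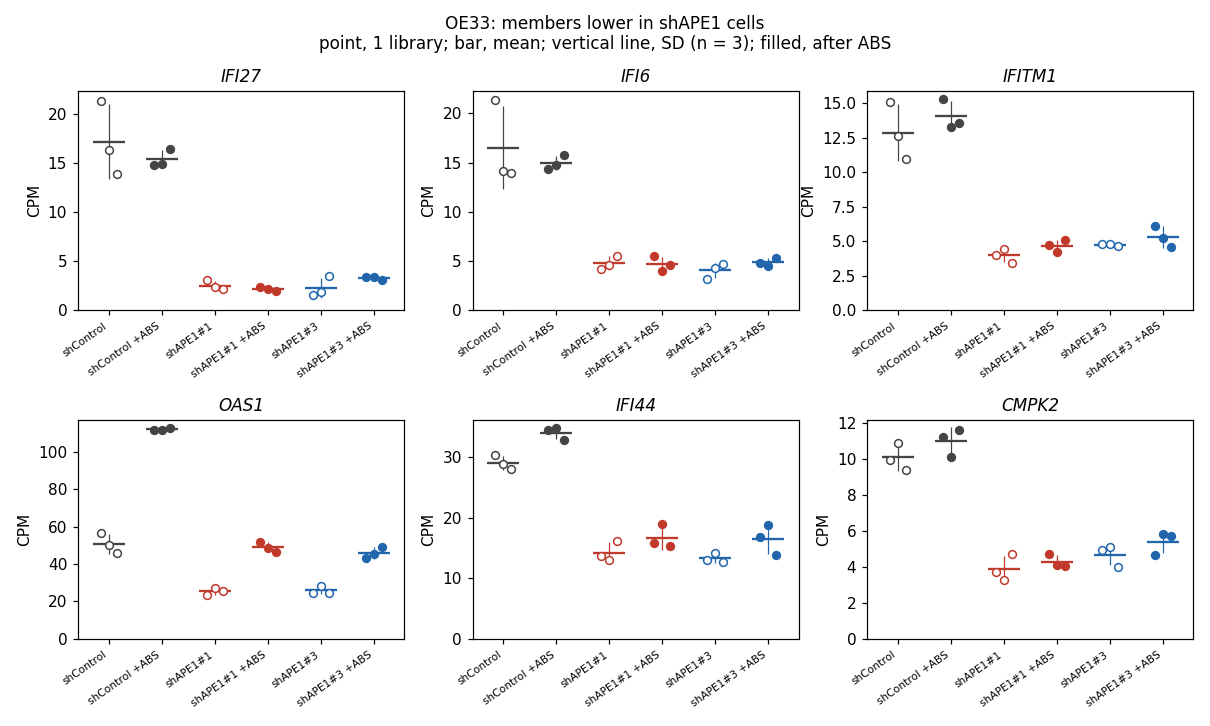
CPM of IFI27, IFI6, IFITM1, OAS1, IFI44 and CMPK2 in OE33 (linear axis from 0), 1 point per library, with the group mean as a bar and the SD as a vertical line (n = 3); filled points are libraries after ABS. In each panel the 12 shAPE1 libraries lie below the control libraries with the same exposure, and in the OAS1 panel the filled points lie above the open ones of the same shRNA.

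The genes of the ISG15 system and of the signaling machinery did not follow the effectors as a whole. UBE2L6, the conjugating enzyme for ISG15 (-0.69 and -0.45), and HERC6, a relative of HERC5 (-0.66 and -0.48) fell with both shRNAs, while ISG15, HERC5 and USP18 did not pass with either. ISG15 read 70, 66.6 and 59.6 CPM in shControl, 64.9, 89.6 and 70.5 with shAPE1#1 and 66.4, 67.6 and 62.7 with shAPE1#3, with overlapping libraries. STAT2, the ISGF3 subunit with the transactivation domain, read 22.8, 19.9 and 21.5 CPM in shControl, 21.3, 19.4 and 21.2 with shAPE1#1 and 21.7, 19.3 and 21.9 with shAPE1#3, with overlapping libraries (-0.05 ± 0.11 and -0.02 ± 0.11). IRF9, the DNA-binding subunit, stood at 1.42, 1.64 and 1.73 CPM in shControl, 0.960, 1.39 and 1.23 with shAPE1#1 and 0.924, 0.952 and 1.73 with shAPE1#3, and its changes of -0.43 ± 0.26 and -0.39 ± 0.27 did not pass. IRF7, a transcription factor that amplifies type I interferon production, changed by 0.16 ± 0.11 and 0.10 ± 0.11 and did not pass. IRF1, a transcription factor of the interferon gamma response, read 64.9, 62.2 and 61.2 CPM in shControl and 70.6, 80.5 and 73.1 with shAPE1#1, a rise of 0.25 ± 0.08 (adjusted p = 0.0227, edgeR) that was lost without shControl replicate 2 or 3 or shAPE1#1 replicate 2; with shAPE1#3 it changed by 0.19 ± 0.08 (adjusted p = 0.0750). ISG20, the other riser with shAPE1#1, read 3.48, 2.87 and 2.79 CPM in shControl and 4.52, 6.51 and 4.66 with shAPE1#1 (0.78 ± 0.17). The RNA sensor IFIH1 (MDA5), the kinase EIF2AK2 (PKR), DTX3L, PARP12 and PARP14 were not called with either shRNA.

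After ABS the knockdown effects in OE33 covered a similar number of members. With shAPE1#1, 25 of 43 were lower and 0 higher (15.8% of all genes called, 8.46% lower and 7.34% higher), and with shAPE1#3, 20 were lower and 0 higher (18.1% called, 9.31% lower and 8.75% higher). OAS1 read 112, 112 and 113 CPM in exposed shControl cells, 51.9, 48.7 and 46.4 with shAPE1#1 and 43.3, 45.2 and 49.3 with shAPE1#3. The 3 control libraries lay close together and far above every knockdown library (-1.20 ± 0.08 and -1.28 ± 0.08). IFI27 read 14.8, 14.9 and 16.4 CPM in exposed shControl, 2.32, 2.13 and 1.98 with shAPE1#1 and 3.4, 3.33 and 3.06 with shAPE1#3, without overlap (-2.84 and -2.23). IFI6 changed by -1.68 and -1.62, IFITM1 by -1.59 and -1.41, and CMPK2 by -1.36 and -1.02. STAT2 (-0.03 and -0.15), IRF1 (0.13 and 0.17), IRF7 (0.14 and 0.09), IRF9 (0.26 and -0.02) and ISG15 (0.12 and 0.07) did not pass with either shRNA after ABS.

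Comparisons that share no library allow the lists of lowered members to be set against each other. Of the 25 members lower with shAPE1#1 in unexposed cells, 20 (80%) were lower with shAPE1#3 after ABS, and these were all 20 of the latter; over all genes the shares were 70.1% and 61.3%. Of the 21 lower with shAPE1#3 in unexposed cells, 20 (95.2%) were among the 25 lower with shAPE1#1 after ABS (80%), against 53.1% and 65.9% over all genes. IFI27, IFI6, IFITM1, OAS1, OAS3, OASL, CMPK2, IFI44 and MX1 were in both shared lists. Some shared members depended on single libraries after ABS. With shAPE1#3, leaving out 1 library lost XAF1 in 6 of 6 fits and LGALS3BP in 5 (adjusted p up to 0.232 and 0.161, edgeR). It lost IFIT2 and MX1 in 3 each (up to 0.124 and 0.0653) and IFIT1 in 2 (up to 0.0811). With shAPE1#1 it lost MX2 in 4 and OAS2 in 3 (up to 0.189 and 0.0755). Between the shRNAs in unexposed OE33, shAPE1#3 against shAPE1#1 gave 0 called members and 0 called genes of 15540 in edgeR (0%), 0 members and 15 genes in DESeq2, and 5 members and 1248 genes at an unadjusted p under 0.05. Of the most abundant members, LGALS3BP differed by 0.15 ± 0.08 and OAS3 by 0.15 ± 0.08 between the shRNAs. The labels call the shRNAs distinct; whether the OE33 cultures carry different hairpins was not tested, and the shared lists of the shRNAs above rest on that label. The interaction of knockdown and ABS gave 0 called members with either shRNA in edgeR and in DESeq2. Of all genes, edgeR called 0% and 0.0129%. An unadjusted p under 0.05 was found for 4 (shAPE1#1) and 5 (shAPE1#3) of 43 members, beside 557 and 617 of all 15540 genes. The sum of the 8 epithelial markers was lower in the OE33 knockdown libraries as well. It was 19180 to 22300 CPM against 23180 to 26090 CPM in the shControl libraries. KRT19, CLDN7 and ELF3 were called lower with both shRNAs, unexposed and after ABS, but CDH1 was called higher with shAPE1#3 in unexposed cells. The list's median change in unexposed cells was -0.06 and -0.07. The mesenchymal markers summed to 238 to 262 CPM in unexposed shControl, 434 to 606 with shAPE1#1 and 591.5 to 674 with shAPE1#3. After ABS the sums were 345 to 405, 535.5 to 577 and 620 to 770 CPM. FN1 was called higher in each of these knockdown comparisons. VIM was also called higher with both shRNAs in unexposed cells (3.319 and 2.498) and with shAPE1#3 after ABS (1.706). ZEB1 was called higher with both shRNAs in unexposed cells only (1.381 and 1.128). VIM averaged 0.6054 CPM in unexposed shControl, 6.021 with shAPE1#1 and 3.391 with shAPE1#3. After ABS the averages were 1.412, 2.544 and 4.681 CPM. In unexposed shControl cells VIM and ZEB1 were called lower in OE33 than in FLO1, and FN1 higher. The part of these markers in the fall of the members was not tested.

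ABS raised 13 of 43 members in OE33 shControl cells and lowered 0, with 8.4% of all genes called (5.89% higher and 2.51% lower). The members' median was 0.18, against -0.01 over all genes. The same exposure raised 13 members and lowered 0 in shAPE1#1 cells (4.73% of all genes called, 3.02% higher and 1.71% lower) and raised 12 and lowered 0 in shAPE1#3 cells (2.26% called, 1.76% higher and 0.502% lower). These 3 comparisons share no library. Their lists had 8 members in common, DTX3L, IFIH1, IRF7, OAS1, OAS3, PARP12, PARP14 and SAMD9L, of 16 members called in at least 1 of them. Pairwise, 10 members were shared between shControl and shAPE1#1 (76.9% of each list, against 38.9% and 75.7% over all genes), 10 between shControl and shAPE1#3 (76.9% and 83.3%, against 24.7% and 82.8%) and 10 between the shAPE1 lists (76.9% and 83.3%, against 42.3% and 72.9%).

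OAS1 gave the largest response among the called members. From the unexposed levels above it went to 112, 112 and 113 CPM in shControl, 51.9, 48.7 and 46.4 in shAPE1#1 and 43.3, 45.2 and 49.3 in shAPE1#3 cells. Every exposed library lay above every unexposed library of its shRNA, and the rises were 2.21-fold (adjusted p = 2.3e-09), 1.93-fold (adjusted p = 1.65e-07) and 1.78-fold (adjusted p = 1.52e-06, edgeR). The exposed shAPE1 libraries lay within or just under the range of the unexposed shControl libraries. SAMD9L read 14.1, 15.6 and 15.9 CPM before and 24, 24.9 and 23.7 after ABS in shControl cells, 13.3, 10.1 and 10.9 before and 22.2, 25.1 and 17.6 after in shAPE1#1 cells, and 13.8, 13.5 and 11.3 before and 20.1, 18.6 and 23.5 after in shAPE1#3 cells. In none of the 3 did the libraries overlap (0.67, 0.92 and 0.70). OAS3 read 124, 113 and 116 CPM before and 162, 168 and 159 after ABS in shControl cells, without overlap, and rose by 0.47 ± 0.08, 0.55 ± 0.08 and 0.44 ± 0.08 with the 3 shRNAs in turn.

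Genes of signaling and of ADP-ribosylation rose more modestly. STAT2 read 22.8, 19.9 and 21.5 CPM before and 33.1, 30 and 28.7 after ABS in shControl cells, without overlap. It rose by 0.52 ± 0.11 (adjusted p = 0.00215) there, by 0.54 ± 0.11 (adjusted p = 0.00358) in shAPE1#1 cells, and changed by 0.39 ± 0.11 in shAPE1#3 cells, which did not pass (adjusted p = 0.0530, edgeR). IRF7 rose by 0.42, 0.39 and 0.41. IRF1 rose in shControl (0.31) and shAPE1#3 (0.29) cells and changed by 0.18 in shAPE1#1 cells. IRF9 (-0.20, 0.49 and 0.17) and ISG15 (0.11, 0.04 and 0.17) did not pass in any of the 3. The ADP-ribosyltransferase genes PARP12 (0.45, 0.39 and 0.38) and PARP14 (0.46, 0.39 and 0.36) rose in all 3, as did DTX3L, a ubiquitin ligase partner of PARP9 (0.46, 0.50 and 0.39). PARP9 itself was not called in any; it starts head to head with DTX3L on the opposite strand and their spans overlap. SAMD9 rose in shControl (0.51) and shAPE1#1 cells (0.55, with overlapping libraries). ISG20, from 3.48, 2.87 and 2.79 CPM, read 4.8, 5.3 and 4.36 CPM after ABS in shControl cells (0.66) and also rose in shAPE1#3 cells (0.65). The members with the largest knockdown falls did not pass after ABS: IFI27 changed by -0.15, IFI6 by -0.14 and IFITM1 by 0.13 in shControl cells.

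**Figure D4:**
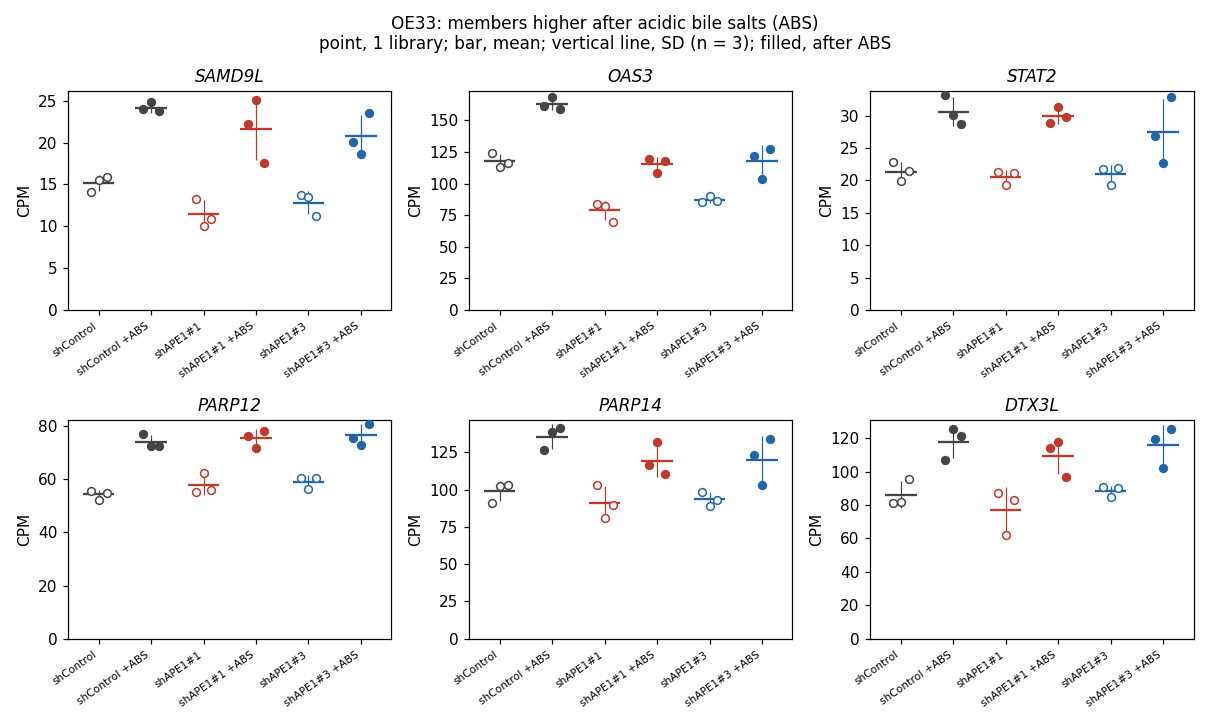
CPM of SAMD9L, OAS3, STAT2, PARP12, PARP14 and DTX3L in OE33 (linear axis from 0), 1 point per library, with the group mean as a bar and the SD as a vertical line (n = 3); filled points are libraries after ABS. Exposed means lie above the unexposed means of the same shRNA in all 6 panels, and in the OAS3 panel the shAPE1 libraries lie below the shControl libraries with the same exposure.

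The counts after ABS depended on single libraries in the shAPE1 cells. Leaving out any 1 of the 6 libraries of a comparison left 10 to 13 members in shControl cells, 7 to 14 in shAPE1#1 cells and 5 to 9 in shAPE1#3 cells; the lowest values came without shAPE1#1 replicate 3 or shAPE1#1 ABS replicate 1 (7 each) and without shAPE1#3 replicate 3 or shAPE1#3 ABS replicate 3 (5 each). OAS1, SAMD9L, OAS3 and PARP12 kept their calls in shControl, shAPE1#1 and shAPE1#3 cells in each of these fits. The IRF7 call of shAPE1#3 cells was lost in all 6 (adjusted p up to 0.242, edgeR). In shAPE1#3 cells the calls of DTX3L, PARP14, IRF1 and ISG20 were each lost in 5 (up to 0.27, 0.299, 0.25 and 0.188). In shAPE1#1 cells those of IFIH1, IRF7 and SAMD9 were each lost in 4 (up to 0.141, 0.143 and 0.106). In shControl cells SAMD9 was lost in 4 and IRF7 in 3 (up to 0.113 and 0.0763). OE33 shControl ABS replicate 3 held 3.20 CPM of VIM against 0.411 and 0.619 in the other replicates of its group; without it ABS raised 12 members in shControl cells.

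In unexposed FLO1 cells shAPE1#1 raised 6 of the 39 tested members and lowered 0, with 6.74% of all 16868 genes called (4.52% higher and 2.22% lower). The members' median was 0.26, against -0.02 over all genes. LGALS3BP, a secreted glycoprotein that binds galectins, read 12.3, 11.1 and 14.4 CPM in shControl and 21.3, 20.4 and 23.5 with shAPE1#1. OASL read 13.5, 8.66 and 10.2 CPM in shControl and 17.8, 15.7 and 16.2 with shAPE1#1. IFIT1 read 15.9, 17.1 and 12.9 CPM in shControl and 21.1, 21.3 and 22.7 with shAPE1#1. For each of these the knockdown libraries lay above all control libraries, and the rises were 0.77 ± 0.16 (adjusted p = 0.00343), 0.61 ± 0.15 (adjusted p = 0.0152) and 0.48 ± 0.14 (adjusted p = 0.0378, edgeR). IFI6 read 18, 19.8 and 19.2 CPM in shControl and 24.7, 26.4 and 25.9 with shAPE1#1 (0.42), and IFI35 (0.38) and STAT2 (0.35) also rose. The others of the set followed in most comparisons did not pass. IRF1 changed by -0.08 ± 0.11, IRF7 by 0.09 ± 0.17, IRF9 by 0.27 ± 0.27, ISG15 by 0.26 ± 0.11 and OAS1 by 0.18 ± 0.41. Leaving out any 1 of the 6 libraries left 2 to 4 calls: LGALS3BP held each time, IFIT1 was lost in 5 of the 6 fits (adjusted p up to 0.187) and STAT2 in all 6 (up to 0.169).

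After ABS, shAPE1#1 raised 13 FLO1 members and lowered 0, with 16.6% of all genes called (8.26% higher and 8.31% lower), and the members' median was 0.38 against -0.00 over all genes. ISG15 read 75.3, 83.4 and 69.7 CPM in exposed shControl and 151, 127 and 115 in exposed shAPE1#1 cells, without overlap (0.76 ± 0.11, adjusted p = 8.42e-05). IFIT1 read 12.6, 7.46 and 8.82 CPM in exposed shControl and 17.9, 18.2 and 17.3 with shAPE1#1, without overlap (0.85 ± 0.14). IFIT2, IFIT3, OASL, IFI6, LGALS3BP, ISG20, PARP9, IFIH1 and IFI35 rose by 0.74, 0.43, 0.69, 0.66, 0.66, 0.56, 0.50, 0.43 and 0.38 in that order. IFI27, at 0.431, 0.226 and 0.553 CPM in exposed shControl, read 1.34, 1.57 and 1.55 CPM with shAPE1#1 (1.82), and RSAD2 (viperin) read 0.646, 0.316 and 0.435 CPM in exposed shControl and 0.895, 1.29 and 1.38 with shAPE1#1 (1.29), a call that was lost without any of 4 libraries (adjusted p up to 0.0851). The epithelial markers summed to 3567 to 4529 CPM in the shAPE1#1 libraries of FLO1, against 2235 to 3016 CPM in its shControl and 2430 to 2645 CPM in its shAPE1#3 libraries; their part in these rises was not tested.

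With shAPE1#3 few FLO1 members passed the test, most of them downward in unexposed cells. In unexposed cells 3 of 39 fell and 1 rose, with 0.788% of all genes called (0.622% lower and 0.166% higher), and the members' median was -0.11 against -0.00 over all genes. IFIT3 read 15.2, 17.6 and 14.7 CPM in shControl and 9.73, 9.52 and 9.45 with shAPE1#3, which did not overlap (-0.75 ± 0.12, adjusted p = 0.00192). LGALS3BP, from the control levels above, read 7.82, 8.75 and 6.43 CPM (-0.73 ± 0.16, adjusted p = 0.0354). IFIT2 read 8.98, 10.8 and 8.38 CPM in shControl and 6.22, 4.91 and 6.67 with shAPE1#3 (-0.69 ± 0.15, adjusted p = 0.0246, edgeR). IFI27, the riser, read 0.575, 0.0896 and 0.221 CPM in shControl and 1.6, 1.56 and 1.14 with shAPE1#3 (2.30 ± 0.44, adjusted p = 0.0108). Leaving out any 1 of the 6 libraries left 1 to 3 of these 4 calls, with IFIT3 the call that held each time. After ABS 1 member was called, IFIT3, at 17.5, 12.2 and 14.2 CPM in shControl and 8.04, 9.61 and 9.83 with shAPE1#3 (-0.70 ± 0.12), with 0.783% of all genes called (0.658% lower and 0.124% higher); without FLO1 shControl ABS replicate 2 the number was 4. STAT2 (0.02), IRF9 (0.49), IRF1 (0.07), IRF7 (-0.03), ISG15 (-0.37) and OAS1 (-0.11) did not pass in unexposed cells.

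Set directly against each other in unexposed FLO1, the shRNAs differed in 16 members, all lower with shAPE1#3 than with shAPE1#1, with 12.2% of all genes called (7.52% lower and 4.66% higher). The members' median difference was -0.34, against 0.02 over all genes. LGALS3BP differed by -1.50 ± 0.16 (adjusted p = 1.28e-06), OASL by -1.17 ± 0.15 (adjusted p = 1.62e-05), IFIT2 by -1.13 ± 0.15 (adjusted p = 1.33e-05) and IFIT1 by -1.02 ± 0.14 (adjusted p = 3.43e-05, edgeR), with no overlap of libraries. IFIT1 read 10.9, 11.5 and 9.65 CPM and OASL 7.92, 7.21 and 6.94 CPM with shAPE1#3. IFIT3 (-1.01), ISG20 (-0.75), IFI6 (-0.69), ISG15 (-0.62) and, at levels under 4 CPM, SAMD9L (-2.23), OAS2 (-1.82), RSAD2 (-1.58) and MX2 (-1.10) were among the others. Without 1 library at a time 13 members were called, not always of these 16; STAT2 (-0.34) was lost in all 6 fits, SAMD9L in 5 (adjusted p up to 0.116) and RSAD2 in 3 (up to 0.0828). APEX1 was also higher with shAPE1#3 than with shAPE1#1 in FLO1, by 0.55 ± 0.08 (adjusted p = 9.59e-05); its part in the difference was not tested. In comparisons that share no library, the 3 members lower with shAPE1#3 in unexposed cells (IFIT2, IFIT3 and LGALS3BP) were all among the 13 higher with shAPE1#1 after ABS (100% and 23.1% of the lists), against 37.1% and 2.8% over all genes.

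**Figure D5:**
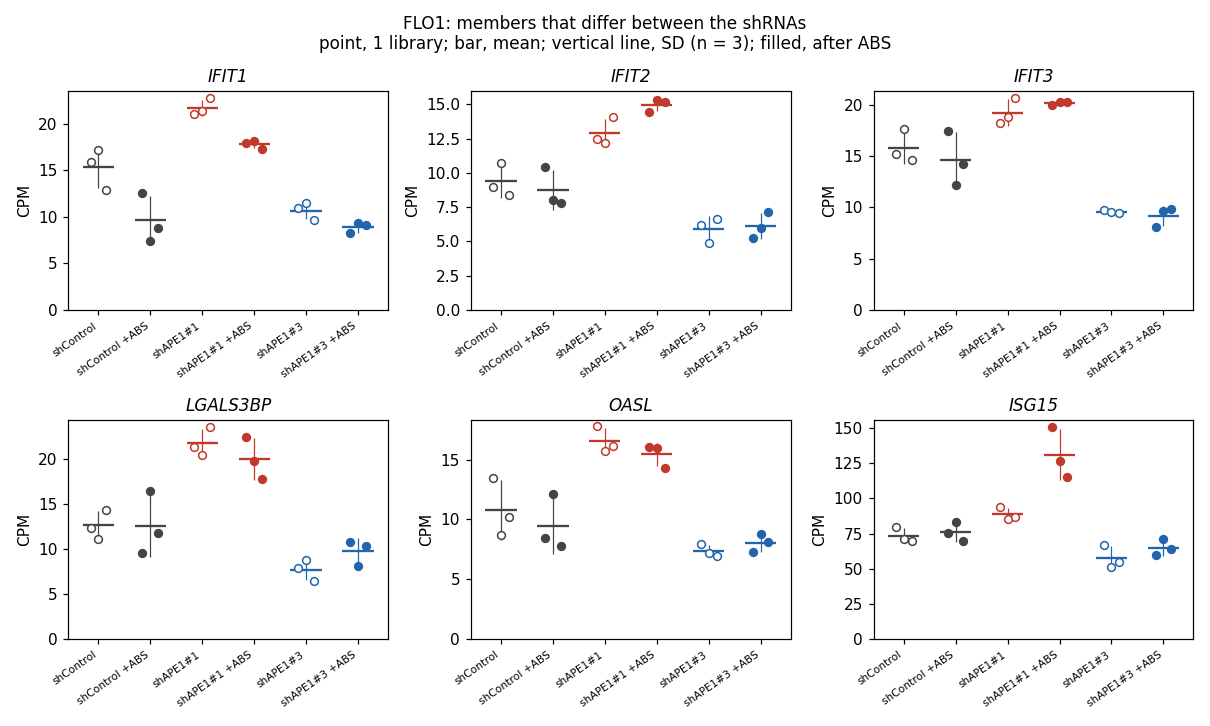
CPM of IFIT1, IFIT2, IFIT3, LGALS3BP, OASL and ISG15 in FLO1 (linear axis from 0), 1 point per library, with the group mean as a bar and the SD as a vertical line (n = 3); filled points are libraries after ABS. In each panel the red shAPE1#1 libraries lie above the blue shAPE1#3 libraries, with the shControl means (grey) of the same exposure between theirs.

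ABS itself moved few members in FLO1. In shControl cells 1 of 39 was called, IFIT1, which read 15.9, 17.1 and 12.9 CPM before and 12.6, 7.46 and 8.82 after exposure, without overlap (-0.66 ± 0.15, adjusted p = 0.0106, edgeR), while 3% of all genes were called (2.48% higher and 0.516% lower). The call was lost without shControl replicate 1 or 2 or without shControl ABS replicate 3 (adjusted p up to 0.0792). In shAPE1#1 cells ISG15 rose (0.55 ± 0.11, adjusted p = 0.00406) and OAS3 fell (-0.49 ± 0.12, adjusted p = 0.0231, edgeR), with 5.01% of all genes called (2.94% higher and 2.07% lower). OAS3 read 121, 125 and 121 CPM before and 67.9, 95.2 and 101 after, and its call was lost without any of the unexposed libraries or without shAPE1#1 ABS replicate 1 (adjusted p up to 0.129). In shAPE1#3 cells edgeR and DESeq2 called 0 members, while 1.81% of all genes were called (1.53% higher and 0.285% lower). An unadjusted p under 0.05 was found for 5 of 39 members, beside 1955 of all 16868 genes. IFITM3 read 918, 847 and 777 CPM before and 921, 882 and 911 after. OAS3 read 106, 115 and 116 CPM before and 99.9, 86.3 and 91 after. STAT2 (0.20), IRF1 (0.25), IRF7 (0.38), IRF9 (0.00), ISG15 (0.05) and OAS1 (-0.55) did not pass in shControl cells. The interaction of knockdown and ABS gave 0 called members with either shRNA in edgeR and DESeq2, and edgeR called 0% of all genes. At an unadjusted p under 0.05 there was 1 member each (ISG15 with shAPE1#1 and IFI44 with shAPE1#3), beside 1615 and 341 of all 16868 genes.

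The differences between the lines were tested directly in the fit of both. The shAPE1#1 effect in unexposed cells was lower in OE33 than in FLO1 for 20 of 44 members and higher for 0, with 6.31% of all 18199 genes called (3.94% lower and 2.37% higher), and the members' median difference was -0.90 against 0.01 over all genes. For IFI6 the difference was -2.22 ± 0.19 (adjusted p = 1.52e-10), for OASL -1.95 ± 0.21 (adjusted p = 2.3e-08) and for IFI27 -3.99 ± 0.52 (adjusted p = 1.26e-06, edgeR). IFI27 averaged 0.295 CPM in FLO1 shControl, so its FLO1 effect rests on low counts. IFI6 and OASL were called in opposite directions within the lines, as were IFI35, IFIT1 and LGALS3BP. These 5 are 83.3% of the 6 risers of FLO1 and 22.7% of the lowered members of OE33 tested in both lines. Over all genes the shares for the same directions were 10.2% and 5.68%. But 25 of the 43 members tested in OE33 were lowered, so many of any 6 members would be among them. In FLO1 the calls of IFIT1, OASL, IFI6 and IFI35 were lost in 5, 3, 2 and 2 of 6 fits without 1 library. For shAPE1#3 the difference was lower in OE33 for 10 members and higher for 1 (IFIT3, 0.50 ± 0.16, lost in 7 of the 12 fits without 1 library, adjusted p up to 0.140), with 7.19% of all genes called (3.67% lower and 3.52% higher), and the median difference was -0.35 against -0.01. The shAPE1#3 effect on APEX1 itself also differed between the lines, by -0.74 ± 0.11 (adjusted p = 1.99e-05, edgeR). With shAPE1#1 that difference was -0.07 ± 0.11 and was not called. The part of the unequal APEX1 change in the members' differences was not tested. The ABS response of shControl cells was greater in OE33 for OAS1 (1.67 ± 0.39) and OAS3 (0.68 ± 0.15) and called in no other of the 44 members, with 1.73% of all genes called (0.764% higher and 0.967% lower). OAS1 was near or under 1 CPM in FLO1, so its response there rests on few counts, and its call was lost without FLO1 shControl replicate 1 or FLO1 shControl ABS replicate 3 (adjusted p up to 0.271). Without FLO1 shControl ABS replicate 1 the number was 6, without replicate 2 of that group it was 4, and without replicate 3 it was 1. For shAPE1#3 the number was 7 without FLO1 shAPE1#3 replicate 3 or OE33 shAPE1#3 replicate 3.

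Genes that feed the pathway were then examined from separate lists. Of 9 interferon genes, 9 in FLO1 and 8 in OE33 were below 1 CPM in every library. IFNE, an epithelial type I interferon and the exception, read 0.831, 0.596 and 1.13 CPM in unexposed OE33 shControl, 0.107, 0.130 and 0.187 with shAPE1#1 and 0.103, 0.0476 and 0.0889 with shAPE1#3, without overlap. It fell at a level of few counts, with changes of -2.56 ± 0.54 (adjusted p = 0.00150) and -3.35 ± 0.64 (adjusted p = 0.000403, edgeR); after ABS it was not called with either shRNA (-0.93 and -1.05). Of 14 receptor and JAK-STAT genes in unexposed OE33, 3 rose and 1 fell with shAPE1#1, and 2 rose and 1 fell with shAPE1#3, beside 16.4% and 21.7% of all genes called. The receptor genes IFNGR1 (0.41 ± 0.09 and 0.46 ± 0.09) and IFNLR1 (0.32 ± 0.10 and 0.45 ± 0.10) rose, and STAT3 fell (-0.48 ± 0.07 and -0.42 ± 0.07). SOCS1, a feedback inhibitor of JAK kinases, rose with shAPE1#1 (0.90 ± 0.28).

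Of 19 genes of nucleic acid sensing, 17 were tested in OE33; 4 fell and 0 rose with shAPE1#1, and 4 fell and 1 rose with shAPE1#3 in unexposed cells, beside the same 16.4% and 21.7% of all genes. IFI16, a DNA sensor that is itself interferon-inducible, read 19.1, 17.9 and 19.9 CPM in shControl, 11.4, 11.6 and 12.6 with shAPE1#1 and 11.5, 10.8 and 10 with shAPE1#3, without overlap (-0.67 ± 0.10 and -0.81 ± 0.10). The RNA-binding regulator DHX58 (-1.04 ± 0.28 and -1.15 ± 0.29) and the receptor TLR3 (-1.02 ± 0.23 and -1.10 ± 0.24) also fell. In FLO1, SAMHD1, a dNTP hydrolase, rose with shAPE1#1 (0.67 ± 0.09), and DHX58 (-0.98 ± 0.28) and SAMHD1 (-0.73 ± 0.09) were lower with shAPE1#3 than with shAPE1#1.

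A list of 28 further interferon-stimulated genes was counted in the same way. In unexposed OE33, 10 of 26 tested fell and 0 rose with shAPE1#1, and 7 fell and 0 rose with shAPE1#3, against 8.13% and 10.5% of all genes lower; the changes were -0.92 ± 0.16 and -0.73 ± 0.16 for the RNA granule gene TDRD7 and -0.64 ± 0.11 and -0.49 ± 0.11 for the apolipoprotein L gene APOL6. ABS in OE33 shControl raised 11 of 26 and lowered 0 (5.89% of all genes higher), with APOL6 at 0.65 ± 0.11, APOL2 at 0.57 ± 0.07, the helicase gene HELZ2 at 0.53 ± 0.09 and PML at 0.42 ± 0.09. In unexposed FLO1, shAPE1#1 raised 8 of 24 and lowered 0 (4.52% of all genes higher), led by the guanylate-binding protein genes GBP1 (2.05 ± 0.30, adjusted p = 0.000127), GBP2 (1.37 ± 0.26) and GBP3 (1.17 ± 0.25), effectors against intracellular pathogens. The same GBP genes were lower with shAPE1#3 than with shAPE1#1 in FLO1, with a difference for GBP1 of -3.50 ± 0.34 (adjusted p = 3.39e-07, edgeR).

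An ISRE core was found both among members that fell and among members that were not called. With shAPE1#1 in unexposed OE33, 14 of the 21 lowered members with a promoter in the table had a match, and so did 11 of the 13 members that were not called. For ABS in OE33 shControl, 7 of the 12 raised members and 19 of the 24 members not called had one. IFI27 and IFI6, printed above with 2 and 3 matches, were among the lowered members. IFIT3 and ISG15, with 2 matches each, were neither lowered nor raised in these comparisons. OAS1, with 0 matches to the searched letters, was lowered in the first and raised in the second. The search does not count GAAA repeats with a shorter spacing, such as those in the printed OAS1 stretch.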

How the data were processed

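The authors deposited a table of raw counts for Ensembl gene identifiers, with a column for each library. Per the submitters' processing notes, the build was GRCh38 and the tools included STAR 2.5.2b, Trimmomatic 0.36 and featureCounts (Subread 1.5.2). Strand setting, annotation release and handling of multiply mapped reads: not given in the sources used here. GENCODE release 29 matched 56898 of the 57500 identifiers, and the others held 0.018% of counts. Counts were fitted per line over 18 libraries, and over 36 for differences between lines, with edgeR 4.0.16 in R 4.3.3 (TMM, filterByExpr, 1 coefficient per group, robust quasi-likelihood test, Benjamini-Hochberg over all genes); the code was checked on simulated counts. No 2 replicates were copies (chi-square per degree of freedom 2.41 to 69.66 over 36 pairs). Alternatives were DESeq2 1.42.0, its size factors in edgeR, no filter, a replicate block, fits of the compared groups only, and leaving out each library. Called members are named by size of change, the 12 largest where more were called, with others to complete a gene family. STAT2, IRF9, IRF1, IRF7, ISG15 and OAS1 are given whatever their call for knockdown in unexposed cells of both lines. They are also given for knockdown after ABS in OE33, for ABS in OE33 and for ABS in FLO1 shControl cells, and not in every other comparison. Other-list genes were named where called, at most 4 per comparison. Members, lists and named genes were chosen with earlier results of these data known. The FLO1 shAPE1#3 ABS replicate 3 column carries an additional suffix and was used as its name gives it; leaving it out kept the counts of members called in its comparisons with shControl and with unexposed cells (1 and 0).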

Additional observations from a re-analysis of the deposited data

Results flagged for a closer look

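The same knockdown or exposure moved 33 gene results to a different extent in OE33 and FLO1, by the test of the interaction of line and effect over both lines (edgeR, adjusted p under 0.05; differences are log2, OE33 minus FLO1, 12 libraries each). The ABS response of shControl cells differed in OAS1 (1.67) and OAS3 (0.68) of 44 members, beside 1.73% of all 18199 genes called. The OAS1 call was lost without FLO1 shControl replicate 1 or FLO1 shControl ABS replicate 3 (adjusted p up to 0.271).

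The shAPE1#1 effect differed in 20 genes of the 44, all lower in OE33, beside 6.31% of all genes called (3.94% lower and 2.37% higher). Among small membrane proteins these were IFI27 (-3.99), IFI6 (-2.22), IFITM1 (-1.60) and IFITM3 (-0.59). The OAS family was there with OAS2 (-2.25), OASL (-1.95), OAS1 (-1.20) and OAS3 (-0.76). Of RNA-binding and GTPase effectors there were IFIT1 (-1.51), IFIT2 (-0.91), MX1 (-0.88), DDX60 (-0.97) and IFI44 (-1.59). The remaining ones were SAMD9L (-2.25), CMPK2 (-1.90), IFI35 (-1.11), LGALS3BP (-1.10), PARP9 (-0.83), UBE2L6 (-0.98), the conjugating enzyme for ISG15, and HERC6 (-0.78). In FLO1 shControl, SAMD9L (0.11 CPM), IFI27 (0.295), IFI44 (0.39), CMPK2 (0.548), OAS2 (0.6), OAS1 (0.67) and IFITM1 (0.935) averaged below 1 CPM. Their FLO1 effects therefore rest on low counts. In OE33, SAMD9L went from 15.2 to 11.4 CPM on average. Leaving out 1 library at a time lost the IFITM3 call in 8 of 12 fits (adjusted p up to 0.150), the OAS1 call in 6 (up to 0.256), HERC6 in 2 (up to 0.110), and OAS2 (0.0574) and SAMD9L (0.0542) without FLO1 shAPE1#1 replicate 3.

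The shAPE1#3 effect differed in 11 genes of the 44, beside 7.19% of all genes called (3.67% lower and 3.52% higher). It was lower in OE33 for IFI27 (-5.25), BST2 (-2.16), IFI6 (-1.77), IFITM1 (-1.60), IFI44 (-1.28), IFI35 (-0.86), IFITM3 (-0.75), MX1 (-0.71), OASL (-0.67) and OAS3 (-0.49), and higher for IFIT3 (0.50). IFI27, BST2, IFI44 and IFITM1 averaged 0.295, 0.461, 0.39 and 0.935 CPM in FLO1 shControl, so their FLO1 effects rest on low counts. Leaving out 1 library at a time lost the OAS3 call in 11 of 12 fits (adjusted p up to 0.119), OASL in 10 (up to 0.168), IFIT3 in 7 (up to 0.140), BST2 in 3 (up to 0.0621) and IFI44 in 2 (up to 0.247).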

How the results depend on the processing

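Numbers of called members moved by more than 1.5 times mainly in FLO1. Fitting only the groups compared gave 0 members for ABS in FLO1 shControl, 12 for shAPE1#1 unexposed, 5 for shAPE1#1 after ABS, 4 for ABS with shAPE1#1, 7 for shAPE1#3 unexposed, 0 for shAPE1#3 after ABS, 3 for ABS with shAPE1#3, 26 for shAPE1#3 against shAPE1#1, 4 for ABS in OE33 shAPE1#1 and 0 for the difference in ABS response between the lines. Without the filter on low counts shAPE1#3 after ABS in FLO1 gave 2 and ABS with shAPE1#3 gave 1. DESeq2 gave 2 for shAPE1#3 after ABS in FLO1 and 4 for the difference in ABS response. The cause was not tested. The other counts stayed within 1.5 times in these alternatives. Fits without 1 library and with a replicate block, given below, moved some counts further. No result reversed. Of 244 called gene results, 241 held with DESeq2, 240 with its size factors in edgeR and 237 without the filter. With only the groups compared 216 of 242 held, and 1396 of 1662 held over the fits without 1 library.

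Leaving out 1 library left 0 to 2 members for ABS in FLO1 shControl, 2 to 4 for shAPE1#1 unexposed, 1 to 2 for ABS with shAPE1#1, 1 to 3 for shAPE1#3 unexposed and 1 to 4 for shAPE1#3 after ABS in FLO1. It left 7 to 14 for ABS in OE33 shAPE1#1, 5 to 9 for ABS in OE33 shAPE1#3, 1 to 6 for the difference in ABS response and 7 to 10 for the difference in the shAPE1#3 effect.

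Replicate numbers did not pair the libraries: same-numbered libraries correlated in their deviations at -0.681 to 0.291 in FLO1 and -0.531 to 0.308 in OE33, and 8 of 18 and 7 of 18 correlated best with their own number. With the number as a replicate block, 7 members were called for ABS in OE33 shAPE1#3 and 224 of the 244 gene results held. Depth limits members below about 1 CPM, 10 in FLO1 and 4 in OE33.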
